A study of Mus musculus with 6 samples.

Results

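Eosinophils are granulocytes that leave the blood for skin and other barrier tissues, drawn by chemokines of the eotaxin family and kept alive by interleukin-5. Their granules hold cationic proteins and ribonucleases, and their surface carries receptors for these signals. The transcripts described here encode granule proteins and receptors of mouse eosinophils and a transcription factor of granulocytes, and were taken by gene name from the probe annotation of the arrays. They comprise 10 genes, Prg2, Epx, Ear1, Ear2, Ear6, Ear11, Siglecf (written Siglec5 in the annotation), Ccr3, Il5ra and Cebpe. They were read by 11 probes, 2 for Siglecf and 1 for each of the others. Of the 10 genes, 9 passed the filter on dim probes and were tested among 23675 genes, and Epx did not pass. Of the 10 genes, 8 were well above background on all 6 arrays, while the most restricted granule products, Prg2 and Epx, lay near background on most arrays. Detection in whole ear skin does not show which cells the transcripts came from, so eosinophil genes is used here as the name of the list only.

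Total RNA of ear skin was measured on 6 one-colour Agilent arrays, 1 per mouse. The KO group held 3 mice deficient for NC16A, numbered 1, 2 and 7, and the WT group held 3 NC16A-sufficient mice, numbered 1, 2 and 3. NC16A is a segment of BP180, or collagen XVII, a transmembrane protein that anchors basal keratinocytes to the basement membrane, and its gene is Col17a1. Animals were matched for age and sex, and no treatment is named. The labels name neither the way the allele was made nor the strain and ages. The comparison asks how ear skin without the segment differs from ear skin with it, in a study of spontaneous skin inflammation.

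The percentage of spots well above background was 72.6 to 77.5 on KO arrays and 74.7 to 78.2 on WT arrays. Values are log2 signals relative to each array's 75th percentile, which was 3806 to 4416 intensity units on KO arrays and 5276 to 6656 on WT arrays. Differences are KO minus WT on this log2 scale with the standard error (SE) of the limma fit, and p-values are adjusted over all genes tested. The number of arrays limits the precision. KO 1 and all WT arrays shared a slide, and KO 2 and KO 7 were on another, so differences are also given as KO 1 minus the WT mean, written as KO 1 alone. A fit with slide as a block gives the same estimate, and since it rests on 1 KO array, its error comes from the spread of the WT arrays and of KO 2 and KO 7. The Col17a1 probe gave 4.48, 4.31 and 4.10 in KO 1, 2 and 7, against 4.41, 4.39 and 4.47 in WT 1, 2 and 3 (difference -0.13 ± 0.14, adjusted p = 0.58), and since the extent of the missing segment is not given, this signal checks no label. All 10 skin markers listed, keratins, cornified envelope and dermal matrix genes, were above background on all 6 arrays.

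No eosinophil gene was called higher or lower in KO ear skin. Of the 9 tested genes 0 passed an adjusted p under 0.05 in limma in either direction, while 2.37% of all genes passed, 1.98% as higher and 0.389% as lower (468 and 92 genes, or 389 and 149 when arrays were scaled to their median). Their median difference was -0.11, against 0.05 over all genes, with 4 genes higher and 5 lower in KO. At an unadjusted p under 0.05 there were 2 of 9, Ear6 and Siglecf, against 26.6% of all genes. The same 2 of 9 were the genes whose groups did not overlap, against 35.4% of all genes. Ear6 was the 1 gene whose KO values lay wholly above its WT values (21.4% of all genes did), and Siglecf was the 1 gene whose KO values lay wholly below (14% of all genes). With 2.37% of all genes called, 0 calls among 9 genes does not set these genes apart from others. Several intervals reached a 2-fold difference on 1 side or the other, and an adjusted p above the threshold does not show that levels were equal.

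**Figure D1:**
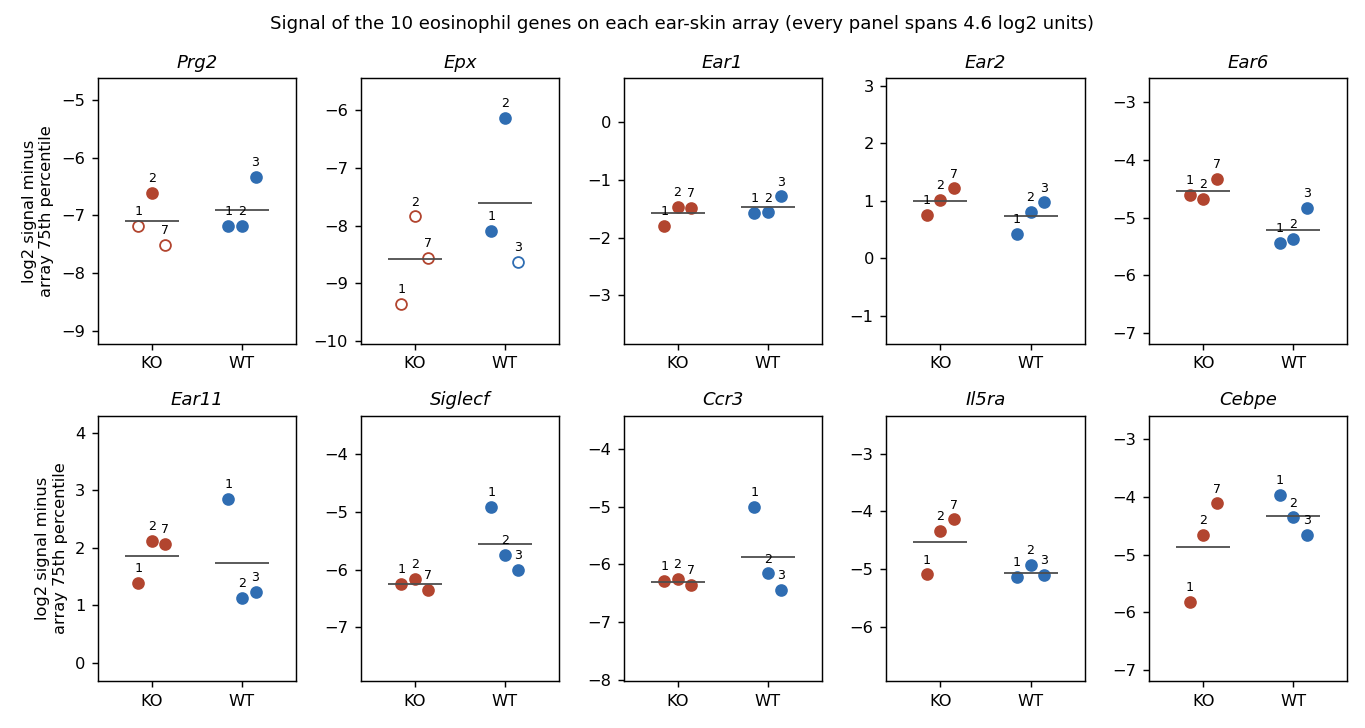
Log2 signal minus the array's 75th percentile (vertical axis) of the 10 eosinophil genes on each KO array (left) and each WT array (right), with replicate numbers beside the points and the group mean as a bar. Open points were not well above background, as for Epx in all KO mice, and only for Ear6 and Siglecf do the groups not overlap.

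Among the granule proteins, the transcripts of the crystalloid core and the peroxidase were at the limit of measurement. Prg2 encodes major basic protein, the main protein of the granule core. Its probe (chromosome 2, 84822799 to 84822858 of mm9, plus strand) had intensities of 30.4, 42.8 and 20.8 in KO 1, 2 and 7, against 45.6, 36.2 and 68.4 in WT 1, 2 and 3. It was well above background on 1 of 3 KO arrays and 3 of 3 WT arrays. On the log2 scale it gave -7.18, -6.60 and -7.51 in KO, against -7.19, -7.19 and -6.33 in WT, and the groups overlapped. The difference of -0.20 ± 0.32 (95% interval -0.97 to 0.58, adjusted p = 0.71) was -0.28 for KO 1 alone. Its direction turned with the background correction, to 0.17 with normexp.

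Epx encodes eosinophil peroxidase, an enzyme of the granule matrix. Its probe (chromosome 11, 87678288 to 87678347 of mm9, minus strand) had intensities of 6.71, 18.2 and 10.1 in KO 1, 2 and 7, against 24.5, 75.2 and 13.9 in WT 1, 2 and 3. It was well above background on 0 of 3 KO arrays and on 2 of 3 WT arrays, WT 1 and WT 2. Counting signals at or above the array's lowest one that was well above background gave 1 of 3 KO arrays and 2 of 3 WT arrays. On the log2 scale it gave -9.36, -7.84 and -8.56 in KO, against -8.09, -6.13 and -8.63 in WT. WT 2 stood highest, WT 1 and WT 3 lay below KO 2, and WT 3 also lay below KO 7. No fold is given, because the mean WT signal was not above the background level of the KO arrays. Prg3, which encodes a second major basic protein, showed the same array as highest. It had an intensity of 226.9 in WT 2 and was not well above background on the other 5 arrays (7.20, 4.26 and 4.82 in KO 1, 2 and 7, against 4.68 and 6.16 in WT 1 and WT 3).

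The Ear genes encode eosinophil-associated ribonucleases of the RNase A superfamily. The family has expanded in rodents into close copies on chromosome 14, and some members, Ear2 and Ear11 among them, are also transcribed by monocytes or macrophages. Probe sequences are shown for 4 family members because near-identical copies can bind each other's probes. WT 1 was the highest array for Ear5 and Ear10, and WT 3 for Ear1 and Ear12. Each of the 4 probes shares an exact run of at least 10 bases with at least 1 other of them, though not with every other. Capitals mark the bases that lie in such a run shared with another of the 4 probes, each of 60 bases, 5′ to 3′ and from the deposited annotation.
Ear1 probe (chr14:44396709-44396768, minus strand, mm9): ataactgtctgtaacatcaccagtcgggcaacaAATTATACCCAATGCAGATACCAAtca
Ear12 probe (chr14:44680899-44680958, plus strand, mm9): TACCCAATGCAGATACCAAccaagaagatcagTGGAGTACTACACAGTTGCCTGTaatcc
Ear10 probe (chr14:44500615-44500674, minus strand, mm9): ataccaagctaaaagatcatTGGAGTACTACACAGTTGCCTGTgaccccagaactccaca
Ear5 probe (chr14:51782432-51782491, plus strand, mm9): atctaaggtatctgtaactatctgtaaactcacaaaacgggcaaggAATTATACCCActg
The Ear1 and Ear12 probes share a run of 19 bases, and the Ear10 and Ear12 probes a run of 23. The Ear2 and Ear6 probes share GCTGAATAGATCTTTTCTAATTA, also 23 bases. The Ear2 probe is annotated with RefSeq accessions of both Ear2 and Ear1. The Ear11 probe shares at most 7 bases in a row with any other Ear probe. Runs shared between probes do not show which other transcripts a probe can bind, because probes may lie at different places in the copies. How much each probe reads of its neighbours' transcripts was not tested, so the values of all Ear genes, Ear11 among them, are uncertain as levels of single genes.

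Ear6 was the ribonuclease with the largest difference. Its probe lies on chromosome 14 from 52474253 to 52474312 of mm9 (plus strand). It gave -4.60, -4.67 and -4.32 in KO 1, 2 and 7, against -5.44, -5.36 and -4.83 in WT 1, 2 and 3. All KO arrays thus stood above all WT arrays, with WT 3 nearest to them. The difference of 0.68 ± 0.20, or 1.60-fold (95% interval 1.15 to 2.24), had an adjusted p of 0.11, and for KO 1 alone it was 0.61. Before scaling the groups overlapped, at intensities of 182, 164 and 190 in KO against 153, 128 and 193 in WT.

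Ear1, a ribonuclease found in eosinophils and lung macrophages, gave -1.79, -1.48 and -1.48 in KO 1, 2 and 7, against -1.58, -1.56 and -1.29 in WT 1, 2 and 3. Its groups overlapped, and the difference was -0.11 ± 0.16 (95% interval -0.48 to 0.27, adjusted p = 0.68). Ear2 (chromosome 14, 44681119 to 44681178 of mm9, plus strand), close to the Ear12 probe on the same strand, gave 0.76, 1.02 and 1.21 in KO, against 0.43, 0.81 and 0.97 in WT. WT 1 was lowest and KO 7 highest, and the difference was 0.26 ± 0.20 (95% interval -0.21 to 0.73, adjusted p = 0.41). For KO 1 alone the differences were -0.32 for Ear1 and 0.02 for Ear2.

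Ear11 (Rnase2a in RefSeq) set 1 WT mouse apart from the others of its group. Its probe (chromosome 14, 51875064 to 51875123 of mm9, minus strand) gave 1.39, 2.13 and 2.07 in KO 1, 2 and 7, against 2.85, 1.13 and 1.23 in WT 1, 2 and 3. The group means were close, 1.86 ± 0.41 in KO and 1.74 ± 0.97 in WT (SD, n = 3 each), but the WT mean lay between a high array and a low pair. All 3 KO arrays stood above WT 2 and WT 3 and below WT 1. The difference was 0.13 ± 0.48 (95% interval -1.03 to 1.28, adjusted p = 0.88), -0.01 with arrays scaled to their median, -0.34 for KO 1 alone and 0.68 without WT 1 (adjusted p = 0.23, against 0.23 to 0.995 over its 18 alternatives).

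The same mouse was highest for several other transcripts of this group, and not for all. WT 1 exceeded the mean of WT 2 and WT 3 by 1.68 for Ear11, by 2.58 for Ear5 (Rnase2b in RefSeq) and by 1.32 for Ear10. Among receptors it did so by 1.30 for Ccr3 and by 0.96 for Siglecf, and Alox15, the 12/15-lipoxygenase of eosinophils and macrophages, by 1.27. The other ribonucleases were not high in WT 1, at -0.15 for Ear1, -0.31 for Ear12, -0.46 for Ear2, -0.34 for Ear6 and -0.18 for Rnase6. The Ear10 and Ear12 probes, which share the 23-base run shown above, thus differed in the sign of this shift. Of the 9 eosinophil genes tested, 2 were at least 2-fold higher in WT 1 than in that mean, Ear11 and Ccr3, against 1.5% of all genes. WT 1 was singled out after its Ear11 value was seen, so this count describes the same values and tests nothing. Counted in either direction, 4.44% of all genes lay at least 2-fold from that mean in WT 1. The share, taken the same way within each group, was 7.26% for KO 7, 4.49% for KO 1 and 2.34% to 2.46% for the others. Markers of other cells moved with WT 1 in part. It was at least 2-fold above that mean for 4 of 18 neutrophil markers (S100a8, Retnlg, Mmp8 and Mpo), 2 of 14 macrophage markers (Chil3 and Lyz2), 1 of 11 mast cell and basophil markers (Ms4a2) and 2 of 18 receptor partners (Il13ra1 and Ccr1), genes named here after their values were seen. It was at least 2-fold below for 1 macrophage marker (Retnla), 1 B cell marker (Jchain) and 2 of 11 adipocyte, muscle and cartilage markers (Plin1 and Ckm). Some of the WT signals in that mean were not well above background. This held in WT 2 for Alox15, in WT 3 for Retnlg and Mmp8, and in both for Ccr1, so the sizes of their differences are uncertain. The list medians of WT 1 minus that mean were 0.29 for neutrophil, 0.20 for macrophage and -0.82 for adipocyte, muscle and cartilage markers, against -0.12 for the eosinophil genes. The part of these cells in the WT 1 values was not tested. In bulk tissue, a larger number of cells and more RNA per cell cannot be told apart.

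**Figure D2:**
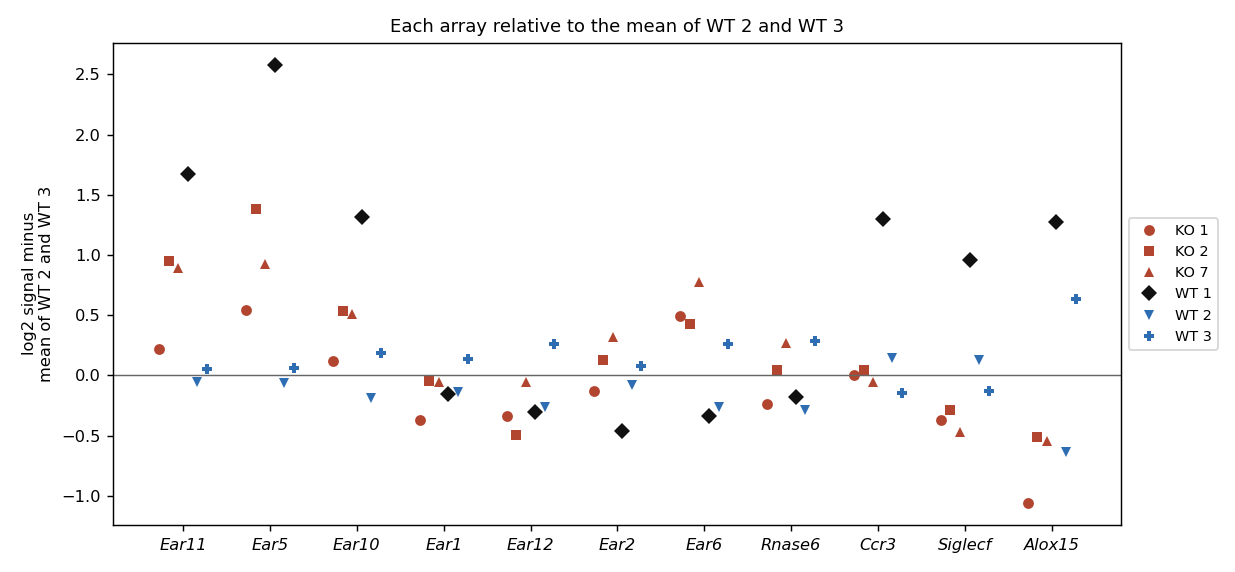
Log2 signal of each array minus the mean of WT 2 and WT 3 (vertical axis) for ribonucleases, receptors and Alox15, with KO arrays left of WT arrays at each gene. The black diamonds of WT 1 stand above 0.9 for Ear11, Ear5, Ear10, Ccr3, Siglecf and Alox15 and below 0 for Ear1, Ear12, Ear2, Ear6 and Rnase6.

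No difference between KO and WT passed among the remaining granule and Ear family genes. Of the 11 listed, 5 were tested, 0 passed and the median was -0.05. Alox15 was the 1 gene with an unadjusted p under 0.05, against 26.6% of all genes. Ear5 differed by 0.09 ± 0.70 (adjusted p = 0.94), Ear10 by -0.05 ± 0.38 (0.94), Ear12 by -0.19 ± 0.21 (0.56) and Rnase6 by 0.08 ± 0.21 (0.81). The wide errors of Ear5 and Ear10 came with the high value of WT 1, and without it their differences were 0.95 and 0.39. Alox15 was well above background on 1 of 3 KO arrays and 2 of 3 WT arrays, and its difference of -1.13 ± 0.47 had an adjusted p of 0.19. It was -0.14 with normexp background and -1.66 to -0.70 with 1 mouse left out. The Ear4 and Ear7 probes stayed below the background threshold in all mice, and no probe carried the names Ear3, Ear14 or Clc.

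Among the receptors, Siglecf was lower on every KO array. Siglecf encodes an inhibitory lectin of eosinophils and of alveolar macrophages that binds sialic acid. Its brighter probe (chromosome 7, 50614768 to 50614827 of mm9, plus strand) gave -6.25, -6.16 and -6.35 in KO 1, 2 and 7, against -4.92, -5.75 and -6.00 in WT 1, 2 and 3. The KO arrays had an SD of 0.094 and WT 1 stood highest. The difference of -0.70 ± 0.28, or 0.62-fold (95% interval 0.39 to 0.98), had an adjusted p of 0.18, and for KO 1 alone it was -0.69. With normexp background it was -0.26. Without WT 1 it was -0.37 (adjusted p = 0.27, against 0.13 to 0.83 over its 18 alternatives). The other Siglecf probe (chromosome 7, 50611746 to 50611805) did not exceed the background threshold in any mouse, with intensities of 3.61 to 7.33 in KO and 5.68 to 11.9 in WT.

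Ccr3 encodes the receptor for eotaxins, which is also carried by basophils and some mast cells. Its probe (chromosome 9, 123945225 to 123945284 of mm9, plus strand) gave -6.30, -6.26 and -6.36 in KO 1, 2 and 7, against -5.00, -6.16 and -6.45 in WT 1, 2 and 3. WT 1 was the high array, and WT 3 lay below all KO arrays. The difference was -0.43 ± 0.36 (95% interval -1.30 to 0.43, adjusted p = 0.45), -0.43 for KO 1 alone, -0.16 with normexp background and -0.0017 without WT 1.

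Il5ra, the ligand-binding chain of the interleukin-5 receptor, is carried by eosinophils and by some B cells. Its probe (chromosome 6, 106660378 to 106660437 of mm9, minus strand) gave -5.09, -4.34 and -4.14 in KO 1, 2 and 7, against -5.14, -4.93 and -5.10 in WT 1, 2 and 3. KO 2 and KO 7, the arrays of the second slide, were above all WT arrays, and KO 1 lay among them. The difference of 0.53 ± 0.26 (95% interval -0.079 to 1.15, adjusted p = 0.23) was -0.03 for KO 1 alone and 0.82 without KO 1 (adjusted p = 0.051, against 0.051 to 0.99 over its 18 alternatives). Without KO 1 the groups lie on different slides, so group and slide cannot be told apart in that value. B cell markers were higher in KO by a median of 0.95 over 7 tested genes, with 0 passing. Of these 4 had an unadjusted p under 0.05, against 26.6% of all genes. The summed signal of B cell markers was 0.347 to 0.703 in KO and 0.190 to 0.215 in WT, in multiples of the array's 75th percentile. Their part in the Il5ra signal was not tested.

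Cebpe encodes a transcription factor needed for the terminal maturation of both neutrophils and eosinophils. Its probe (chromosome 14, 55329200 to 55329259 of mm9, minus strand) gave -5.81, -4.66 and -4.11 in KO 1, 2 and 7, against -3.97, -4.35 and -4.65 in WT 1, 2 and 3. KO 1 was the lowest array and KO 7 lay among the WT arrays. The difference was -0.54 ± 0.43 (95% interval -1.57 to 0.50, adjusted p = 0.44), -1.49 for KO 1 alone, -0.31 with normexp background and -0.06 without KO 1.

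The factors that draw or sustain eosinophils pointed in both directions. Of 14 listed genes 13 were tested, 0 passed and the median difference was 0.34. At an unadjusted p under 0.05 there were 6 of 13, against 26.6% of all genes. Ccl11 and Ccl24 encode eotaxins, the ligands of Ccr3. Ccl11 gave -1.17, -1.66 and -1.81 in KO 1, 2 and 7, against -0.69, 0.04 and -0.06 in WT 1, 2 and 3. All KO arrays were below all WT arrays, as for 14% of all genes. Its difference of -1.31 ± 0.26 missed the threshold narrowly (adjusted p = 0.056). The alternatives gave 0.028 to 0.54, with 4 of 18 under 0.05. These 4 include the fit without KO 1, where group and slide cannot be told apart. For KO 1 alone the Ccl11 difference was -0.93. Ccl24 gave -2.36, -2.91 and -1.28 in KO, against -1.27, -0.98 and -1.26 in WT. Its KO values were also wholly below, KO 7 by little, and the difference was -1.01 ± 0.40 (adjusted p = 0.17), -1.19 for KO 1 alone, or -1.46 without KO 7 (adjusted p = 0.037, against 0.037 to 0.74 over 18 alternatives).

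Other ligands of Ccr3 or of related receptors were higher in KO without passing. Ccl5 differed by 0.86 ± 0.25 (adjusted p = 0.11), Ccl8 by 1.18 ± 0.36 (0.12) and Ccl3, a ligand of Ccr1, by 2.46 ± 0.88 (0.15). In each case the KO values lay wholly above the WT values, as for 21.4% of all genes. For KO 1 alone these differences were 0.61, 0.64 and 1.33. Ccl3 was far highest in KO 7, at 0.80 against -2.42 and -2.24 in KO 1 and KO 2 and -3.14, -3.54 and -4.56 in WT 1, 2 and 3. Ccl7 differed by 0.34 ± 0.40 (0.60). Il5, the ligand of Il5ra, was well above background on 1 of 3 KO arrays and 3 of 3 WT arrays. It gave -7.31, -6.44 and -7.61 in KO, against -6.38, -6.32 and -6.81 in WT (difference -0.62 ± 0.32, adjusted p = 0.25), and with normexp background the difference was -0.024. Il3 (0.71 ± 0.28, adjusted p = 0.18) and Csf2 (0.76 ± 0.38, 0.24) encode the other cytokines that use the shared beta chain of the Il5ra receptor. Both were near background. Il3 was well above it on 2 of 3 KO arrays and 1 of 3 WT arrays, and Csf2 on 2 of 3 arrays in each group. The type 2 cytokines Il4 (0.33 ± 0.22, 0.35) and Il13 (0.63 ± 0.58, 0.49) and the epithelial alarmins Il33 (-0.02 ± 0.16, 0.93) and Tslp (-0.17 ± 0.24, 0.66) did not pass either. Il25 was well above background on 0 of 3 KO arrays and 2 of 3 WT arrays, and no fold is given.

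**Figure D3:**
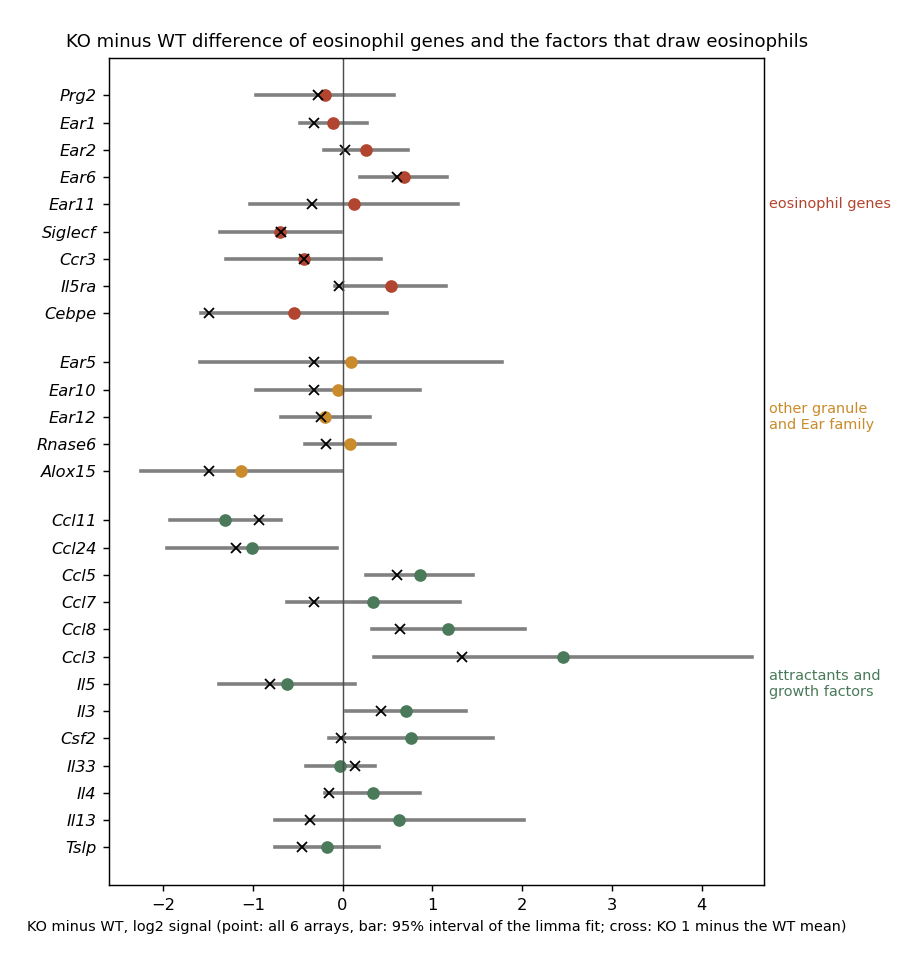
KO minus WT difference in log2 signal (horizontal axis) of the 9 tested eosinophil genes, 5 other granule and Ear family genes and 13 attractants and growth factors, with the 95% interval of the limma fit as a bar and KO 1 minus the WT mean as a cross. The Ccl11 interval, from -1.92 to -0.69, has the lowest upper end, and among the eosinophil genes only those of Ear6 and Siglecf leave out 0.

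Partners of these receptors and granulocyte transcription factors gave no calls either. Of 19 receptor partners and effectors, 18 were tested, 0 passed and the median was 0.44. At an unadjusted p under 0.05 there were 5 of 18, against 26.6% of all genes. Ptgdr2, the prostaglandin D2 receptor of eosinophils and basophils, differed by 1.50 ± 0.47 (adjusted p = 0.12), or by 0.48 for KO 1 alone, and without KO 1, where group and slide cannot be told apart, by 2.01 (adjusted p = 0.035, against 0.035 to 0.90 over 18 alternatives). Ltb4r1, a leukotriene B4 receptor, differed by 0.47 ± 0.13 (0.11), or by 0.29 for KO 1 alone. Of 13 transcription factors all were tested, 0 passed and the median was 0.18. Here 3 of 13 had an unadjusted p under 0.05, against the same 26.6% of all genes. Spi1, which encodes PU.1, differed by -0.75 ± 0.27 (0.15) and Runx1 by 0.69 ± 0.27 (0.17), or for KO 1 alone by -0.70 and 0.40.

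Some markers of neutrophils, the other granulocytes of inflamed skin, rose in KO. Of 20 listed, 18 were tested and 7 rose, against 1.98% of all genes. Of the 18, 0 fell and 11 did not pass, and the median was 1.95 (1.82 for KO 1 alone). Ly6g (-0.35) and Prtn3 (-0.62), named after their values were seen, were among those that did not pass and had lower values in KO. The summed signal was 114 to 194 in KO and 16.4 to 19.4 in WT, in multiples of the array's 75th percentile, and S100a8, S100a9 and Stfa1 made up 78.8% to 86.0% of it in KO and 33.8% to 45.1% in WT. S100a8 rose by 4.72 ± 0.35 (adjusted p = 0.0023) and S100a9 by 4.69 ± 0.30 (0.0019), 2 genes that keratinocytes of inflamed skin also transcribe. Stfa1, which encodes a cystatin and was listed as a neutrophil marker, rose by 3.43 ± 0.28 (0.0031), and the cells it came from were not identified. For KO 1 alone these differences were 4.69, 4.36 and 2.92 for S100a8, S100a9 and Stfa1. By the same measure the eosinophil genes summed to 4.73 to 7.06 in KO and 4.42 to 9.10 in WT, with WT 1 highest, of which the Ear2 and Ear11 probes made up 91.3% to 92.4% in KO and 88.6% to 94.3% in WT. Macrophage markers (14 of 15 tested, median -0.16, 5 at an unadjusted p under 0.05) and mast cell and basophil markers (11 of 12, 0.31, 3) had 0 calls, and so had the 10 skin markers (0.52, 8) and the adipocyte, muscle and cartilage markers (11 of 12, -0.81, 5). Over all genes 26.6% had an unadjusted p under 0.05. The untested mast cell and basophil marker was Mcpt8, named after its values were seen. It was well above background on KO 2 and KO 7, with intensities of 92.4 and 110, but not on KO 1 (14.6) or any WT array. Its mean KO signal was at least 2.93-fold the background level of the WT arrays, a bound without a test. For KO 1 alone the medians were -0.38 for macrophage, -0.12 for mast cell and basophil, 0.25 for skin and -0.42 for adipocyte, muscle and cartilage markers. The summed macrophage signal was 28.4 to 45.9 in KO and 38.5 to 42.2 in WT, and that of mast cells and basophils 24.5 to 61.5 in KO and 22.6 to 28.8 in WT. Their part in the signals of Ear2, Ear11, Siglecf and Ccr3 was not tested.

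**Figure D4:**
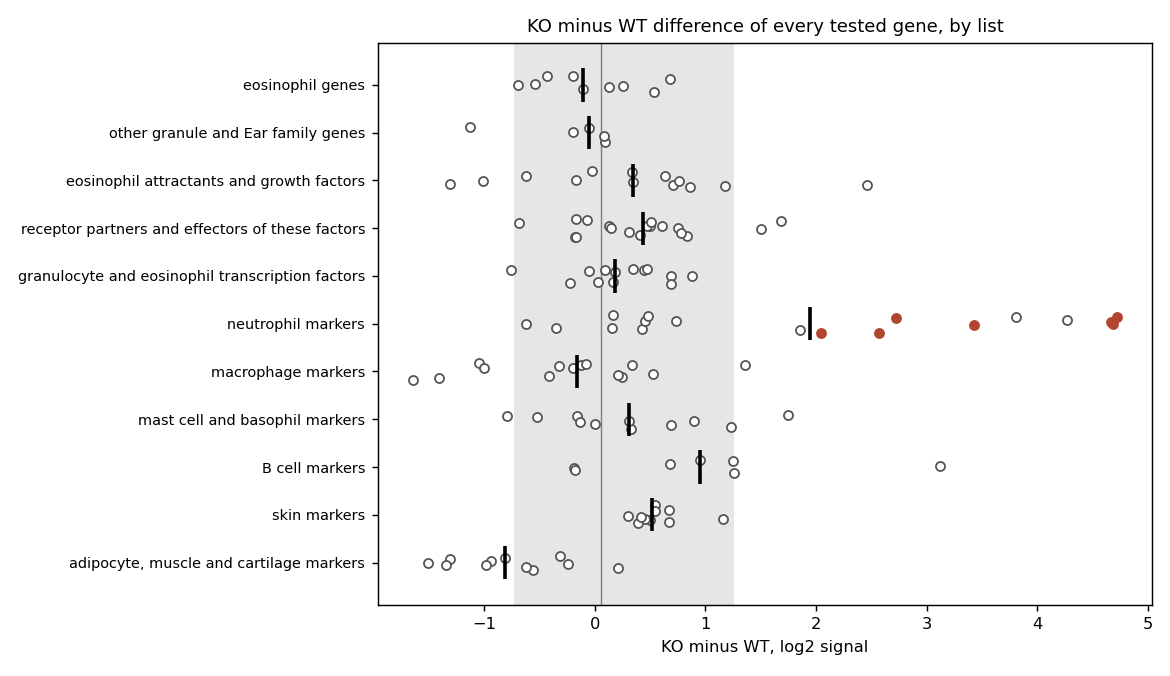
KO minus WT difference in log2 signal (horizontal axis) of every tested gene by list, with the list median as a black bar, genes that passed as filled points and the range of the 5th to 95th percentile of all genes (-0.72 to 1.25) in grey. All 9 eosinophil genes lie within the grey range, around a median of -0.11, while 7 neutrophil markers passed.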

How the data were processed

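Total RNA of ear skin from 3 KO and 3 WT mice was hybridised to 6 one-colour arrays. The deposited scanner files hold an intensity per spot that Agilent Feature Extraction 10.7.3.1 (protocol GE1_107_Sep09) had background-subtracted and corrected for spatial trends, with no scaling between arrays, per the file headers. The series matrix holds the same values. Probe positions are on mm9.

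Outlier spots were left out and the spots of a probe averaged. Values were log2 of the intensity minus the array's 75th percentile over 39389 usable probes. A probe was kept if 3 or more of the 6 arrays had it well above background, and a gene was its kept probe with the highest mean. The 2 groups were set against each other with lmFit and eBayes of limma 3.58.1 in R 4.3.3. P-values were two-sided, adjusted by Benjamini and Hochberg over 23675 genes, and called under 0.05. A probe with no array of a group above background was given as a bound where that exceeded 1-fold. Gene names were updated through a RefSeq gene table (GRCm38.p6, names only), with matches through the accession for 26055 probes, the symbol for 3195 and a synonym for 930.

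The members and lists were chosen with earlier results of these data known. Named were all eosinophil genes, all measured genes of the granule and attractant lists, and elsewhere, by p, the first 4 genes that passed, or the first 2 genes where fewer than 2 passed. Genes of other cell types among these are given only where a result turns on them. Alternatives covered background correction, scaling, filter, choice of probe, replicate number and slide as blocks, the series matrix and each mouse left out. The code was tested on simulated data and run in Python 3.11.15.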

Additional observations from a re-analysis of the deposited data

How the results depend on the processing

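No eosinophil gene passed the threshold in either direction under any of the 18 alternatives in which it was tested (17 for Prg2). The lowest adjusted p was 0.051, for Il5ra without KO 1, and the next 0.087, for Ear6 with normexp. Of the differences of single eosinophil genes under these alternatives, 150 kept their direction and 11 turned. Over all genes the calls were 468 higher and 92 lower in KO. With normexp 860 were higher, with arrays scaled to their median 149 were lower (a shift of -0.14 in the median of all genes), with no filter 269 were higher and 27 lower, and with slide as a block 158 were higher and 10 lower. Leaving out each mouse gave 183 to 717 higher and 19 to 254 lower, with the most of both without KO 1, where the groups lie on different slides and cannot be told apart from them. For replicate number as a block, the deviations of the mice numbered 1 correlated by 0.083 and those of the mice numbered 2 by 0.054. The arrays numbered 1 also shared a slide, and these 2 correlations cannot decide whether the numbers pair mice. The replicate block gave 0 higher and 0 lower in limma, with 4516 genes at an unadjusted p under 0.05.

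Turned differences were Prg2 (0.17) and Il33 (0.070) with normexp, Rnase6 (-0.016) with quantile normalization, Ear11 (-0.012), Ear5 (-0.046) and Rnase6 (-0.053) with median scaling, and Krt5 (-0.15) as the mean of its 2 probes, which disagree. With the replicate block they were Prg2 (0.30), Ear11 (-0.23), Ear5 (-0.29) and Ccl7 (-0.10). With the slide block they were Il5ra (-0.034), Ear11 (-0.34), Ear5 (-0.32), Rnase6 (-0.18), Ccl7 (-0.32), Csf2 (-0.018), Il33 (0.14), Il4 (-0.15) and Il13 (-0.36). Leaving out 1 mouse gave -0.18 to 0.68 for Ear11, -0.37 to 0.95 for Ear5, -0.36 to 0.39 for Ear10, -0.44 to 0.089 for Prg2, -0.038 to 0.26 for Rnase6, -0.048 to 0.68 for Ccl7, -0.11 to 0.092 for Il33 and -0.069 to 1.13 for Il13. Ccl11 passed with normexp, with the filter on all 6 arrays, without WT 1 and without KO 1, where group and slide cannot be told apart. The slide block, whose KO effect rests on KO 1, turned the medians of the attractants to -0.15 and of the mast cell and basophil markers to -0.12 (-0.10 without KO 7), and gave 0.09 for receptor partners, 0.48 for B cell markers and 0.25 for skin markers. The median of skin markers was 0.14 with quantile normalization, that of neutrophil markers 1.29 with the filter on all 6 arrays, and that of B cell markers 0.63 with normexp. Epx was counted above background in 1 KO mouse by the lowest signal well above background. The cause was not tested for any of these. Signal near background limits Prg2, Epx, Prg3, Alox15, Il5, Il3, Csf2 and Il25. P-values set each difference against the spread between these 3 mice per group, moderated by limma with the spread of all genes. The KO spread also holds any difference between the 2 slides.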
